A study of Mus musculus with 4 samples.

Results

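In all, 10 feedback inhibitors of MAP kinase signaling were read in the transcriptomes of 4T1 cells, a murine line of triple-negative breast cancer (TNBC). They were taken by symbol, as 6 MAP kinase phosphatase genes (Dusp1, Dusp2, Dusp4, Dusp5, Dusp6 and Dusp10), 3 Sprouty genes (Spry1, Spry2 and Spry4) and Spred1. All 10 were found once each among the 49585 genes of the deposited table, and all 10 were expressed, that is, some library showed an FPKM of 1 or more. FPKM divides the fragments counted for a gene, each of them 1 read pair, by the length of the gene and by the depth of the library, so that levels can be set side by side between genes. The study asked why 2 clones of this line cope differently with altered iron supply. The clones, 4T1-HM with a high and 4T1-LM with a low metastatic capacity, each grew from a single cell of the parental line. Cells of both were cultured for 48 h in medium with 50 uM of the oral iron chelator deferasirox (DFX) dissolved in DMSO, or with DMSO alone, which gave the libraries HM_Ctrl, HM_DFX, LM_Ctrl and LM_DFX. Each metastatic phenotype was thus represented by 1 clone and each condition by 1 library. No difference between libraries therefore had a replicate check, and no p-value is given. Where 4 values are given in a row, they stand for HM_Ctrl, HM_DFX, LM_Ctrl and LM_DFX. All intervals cover counting error at 95% and not the variation between cultures.

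Growth factor receptors signal through Ras, Raf and MEK to the MAP kinase ERK, whereas cell stress acts through related cascades to the MAP kinases p38 and JNK. Dual-specificity phosphatases (the Dusp genes) remove phosphate from threonine and tyrosine of the activated kinases, and Sprouty and Spred proteins restrain the pathway closer to the receptor and Ras. Many of these inhibitors are transcribed in response to the kinases that they restrain, so their transcripts are often read as a record of pathway output.

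The sequences upstream of 5 members are shown first. Dusp1, Spry2, Dusp6 and Spry1 changed at least 2-fold under DFX in both clones, as did Dusp10, which is not shown. Dusp5 was added for its motifs. Dusp2 and Spred1, which also held a motif, are not shown. Promoter sequences from RefSeq (build GRCm38.p6, the assembly of mm10) matched 8 of the 10 members, and none was used for Dusp4 or Spry4. Each run below ends at the base before the start of the gene in the deposited table and is written 5′ to 3′. Capitals mark matches on either strand to the cyclic AMP response element (CRE) TGACGTCA, its core TGACG, the AP-1 motif TGANTCA, the ETS motif CCGGAAG, the core ACGTG bound by HIF, the TATA motif TATAAA, and the CArG box of the serum response element.
Dusp1 (chr17:26508520-26508722, minus strand): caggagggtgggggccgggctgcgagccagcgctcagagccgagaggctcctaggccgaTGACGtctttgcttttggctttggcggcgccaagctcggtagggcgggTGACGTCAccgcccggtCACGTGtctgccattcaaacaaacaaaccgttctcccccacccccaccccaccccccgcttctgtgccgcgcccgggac
Spry2 (chr14:105896820-105897069, minus strand): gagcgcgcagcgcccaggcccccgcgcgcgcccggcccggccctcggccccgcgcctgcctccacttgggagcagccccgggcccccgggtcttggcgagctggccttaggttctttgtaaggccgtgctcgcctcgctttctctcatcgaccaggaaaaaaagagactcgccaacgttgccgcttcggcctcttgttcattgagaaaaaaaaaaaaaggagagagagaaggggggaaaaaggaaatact
Dusp5 (chr19:53528895-53529108, plus strand): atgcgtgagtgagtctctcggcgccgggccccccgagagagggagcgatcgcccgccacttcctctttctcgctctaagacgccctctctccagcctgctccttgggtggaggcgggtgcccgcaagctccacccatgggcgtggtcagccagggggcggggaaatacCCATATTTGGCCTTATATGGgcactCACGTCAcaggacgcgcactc
Dusp6 (chr10:99262981-99263230, plus strand): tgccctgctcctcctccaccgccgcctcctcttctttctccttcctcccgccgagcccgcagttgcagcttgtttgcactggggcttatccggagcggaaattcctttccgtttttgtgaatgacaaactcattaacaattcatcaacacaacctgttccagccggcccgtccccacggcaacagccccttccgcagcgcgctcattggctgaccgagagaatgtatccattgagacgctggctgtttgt
Spry1 (chr3:37639697-37639946, plus strand): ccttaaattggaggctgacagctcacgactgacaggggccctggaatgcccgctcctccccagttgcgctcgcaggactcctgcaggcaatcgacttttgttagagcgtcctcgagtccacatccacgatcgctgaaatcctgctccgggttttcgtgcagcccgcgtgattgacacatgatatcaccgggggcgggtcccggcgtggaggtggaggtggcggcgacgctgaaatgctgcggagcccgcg
In the 203 bases of Dusp1 a full CRE was found, a motif that 0.855% of 32851 RefSeq promoters hold in the same window. The core TGACG occurred once more upstream of it and ACGTG, as CACGTG on both strands, just downstream, and 13% and 13.1% of these windows hold the cores. Dusp5 held a pair of CArG boxes next to each other in 214 bases, where 1.27% of promoters hold at least 1, together with the sequence CACGTCA, in which ACGTG (14% of these windows) and TGACG (14.3%) overlap on the opposite strand. Over 250 bases none of the motifs was found for Spry2, Dusp6 or Spry1, which says only that these letters do not occur there. The 250-base windows of Dusp2 and Spred1 held the core ACGTG, as do 16.6% of promoters, and that of Dusp10 none of the motifs. Of these windows only that of Dusp2 adjoins the deposited start of its gene. The window of Spred1 precedes a RefSeq start 303 bases further upstream. For Dusp10 it precedes a RefSeq start that lies 21079 bases inside the deposited gene. A match is a description and not a binding site.

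With DMSO alone the 10 genes spanned more than 2 orders of magnitude in HM_Ctrl. Dusp4, which encodes a nuclear phosphatase of ERK, JNK and p38, led with an FPKM of 96.9 and made up 36.5% of the summed FPKM of the 10 genes. It was followed by Dusp6, which encodes the cytoplasmic phosphatase of ERK, at 46.6 and by Spry2 at 33.3. At the lower end stood Dusp1 at 7.20, Spry4 at 5.10 and Dusp2 at 0.775. The order differed in LM_Ctrl. There Spry1 (29.8), Dusp6 (28.9) and Dusp5 (27.8) were highest, and the counting intervals of neighbours in this order overlapped. Dusp4 came only after them at 21.4, and Dusp1 and Dusp2 were lowest at 2.71 and 1.02. Under DFX both clones took on much the same order, with Dusp4 (165 in HM_DFX and 102 in LM_DFX) and Spry2 (73.3 and 46.1) at the top and Spry1, Spry4 and Dusp2 at the bottom. Dusp1 moved from the eighth place to the third in 4T1-HM, level with Dusp10 (FPKM 52.0 and 51.6, with overlapping intervals). Dusp6 moved from the second place to the seventh there, and from the second to the sixth in 4T1-LM. The summed FPKM of the 6 phosphatase genes was 189 with DMSO and 304 with DFX in 4T1-HM, and 93.8 and 206 in 4T1-LM. For Spred1 and the Sprouty genes the sums were 76.5, 90.4, 63.8 and 68.6.

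**Figure D1:**
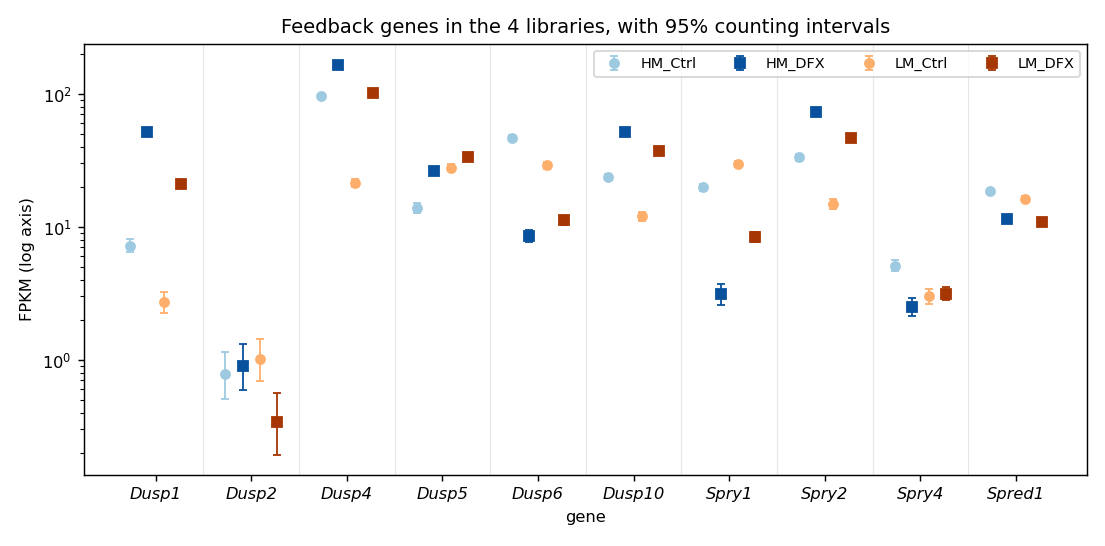
FPKM of the 10 feedback genes (log axis) in the 4 libraries. Points are 1 library each and bars are 95% Poisson counting intervals of the recovered fragments. Dusp1, Dusp4, Dusp5, Dusp10 and Spry2 lie higher and Dusp6, Spry1 and Spred1 lower with DFX (squares) than with DMSO (circles) in both clones.

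The libraries held between 14363061 and 21883838 fragments, and the members rested on 15 to 6478 of them. Of 6 targets of the hypoxia factor HIF (Ndrg1, Vegfa, Slc2a1, Bnip3, Car9 and Egln3), which iron chelators are known to induce, 6 rose with DFX in 4T1-LM by the 2-fold rule given below (background 7.09%). In 4T1-HM, 1 (Ndrg1) rose (background 6.93%) and 1 (Egln3) fell (background 12.4%), while Bnip3, Vegfa and Slc2a1 lay just under the threshold with log2 fold changes of 0.99, 0.97 and 0.95. Car9 went the other way without being called, with −0.32 and an FPKM of 35.6 in HM_Ctrl and 28.3 in HM_DFX. The control libraries already differed, as 5 of the 6 (all but Vegfa) were called higher in HM_Ctrl than in LM_Ctrl (background 3.65%). The list median of that comparison was 1.54, and it was −0.19 for HM_DFX against LM_DFX. Slc2a1, for example, had an FPKM of 107, 207, 40.3 and 231. The epithelial genes Epcam, Cdh1, Krt8 and Krt18 were expressed in all libraries, and Krt5 was listed at 0. Krt14 had an FPKM of 2.48, 1.90, 54.3 and 10.4. The summed FPKM of 6 epithelial markers went from 1489 to 445 with DFX in 4T1-HM and from 2076 to 932 in 4T1-LM. Of 12 fibroblast, immune and endothelial markers, Pdgfra and Cd68 were expressed. The FPKM of Cd68 went from 12.9 to 37.4 in 4T1-HM and from 12.3 to 83.1 in 4T1-LM, whereas Cd3e was listed at 0 and Ptprc, Lyz2 and all 3 endothelial markers stayed under 1. The part of these markers in the changes below was not tested, and in bulk RNA a change in the mix of cells and a change of RNA per cell cannot be told apart.

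DFX moved the feedback genes in both directions, and largely the same ones in both clones. A gene was called at a change of at least 2-fold in FPKM + 1. In HM_DFX against HM_Ctrl, 3 members rose (Dusp1, Dusp10 and Spry2), where 6.93% of 12669 expressed genes did, and 2 fell (Dusp6 and Spry1), where 12.4% did. In LM_DFX against LM_Ctrl, 4 members rose (Dusp1, Dusp4, Dusp10 and Spry2) against a background of 7.09%, and 2 fell (Dusp6 and Spry1 again) against 8.72%. In either direction, 5 members were called in 4T1-HM (background 19.3%) and 6 in 4T1-LM (background 15.8%). The median log2 fold change of the 10 members was 0.43 in 4T1-HM and 0.16 in 4T1-LM, beside medians of −0.10 and −0.04 over all expressed genes. These medians hide the spread among members, which reached from −2.33 to 2.69 in 4T1-HM and from −1.71 to 2.56 in 4T1-LM. Of the 10 members, 8 had the same sign in both clones. Median-ratio scaling moved the median of all genes in 4T1-HM to 0.00 and the split of calls over all genes from 878 higher and 1568 lower to 1128 and 1277, but it left the calls of all 10 members as they were.

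The largest rise was that of Dusp1. This gene (ENSMUSG00000024190, chromosome 17 from 26505590 to 26508519 of mm10) encodes a nuclear phosphatase that acts on p38, JNK and ERK and is an early response gene of stress and growth factors. Its FPKM was 7.20 with DMSO and 52.0 with DFX in 4T1-HM, and 2.71 and 20.9 in 4T1-LM. Both DFX libraries lay above both control libraries. The log2 fold change was 2.69 in 4T1-HM and 2.56 in 4T1-LM, higher than in 99.7% and 99.3% of expressed genes. Without a pseudocount the rise was 7.22-fold (6.42 to 8.15) and 7.71-fold (6.36 to 9.41), so that the intervals of the clones overlapped.

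Dusp4 (ENSMUSG00000031530, chromosome 8 from 34807297 to 34819894) rose past the threshold in 4T1-LM. Its FPKM was 96.9 with DMSO and 165 with DFX in 4T1-HM, and 21.4 and 102 in 4T1-LM, so LM_Ctrl stood apart from the other libraries. The increase was 4.77-fold (4.45 to 5.12) in 4T1-LM, from 923 to 6123 fragments. In 4T1-HM the ratio was 1.70 (1.64 to 1.77) and no call was made. LM_DFX thus reached about the level that HM_Ctrl had without the drug.

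Dusp10 and Spry2 had nearly the same profile. Dusp10 (ENSMUSG00000039384, chromosome 1 from 184013302 to 184075636) encodes a phosphatase that prefers p38 and JNK to ERK, and its FPKM was 23.7 with DMSO and 51.6 with DFX in 4T1-HM, and 12.0 and 37.4 in 4T1-LM. Spry2 (ENSMUSG00000022114, chromosome 14 from 105891949 to 105896819), an inhibitor of receptor tyrosine kinase signaling, had an FPKM of 33.3, 73.3, 14.9 and 46.1 in the same order. For both genes each DFX library exceeded both control libraries. Dusp10 rose 2.18-fold (2.03 to 2.34) in 4T1-HM and 3.13-fold (2.86 to 3.43) in 4T1-LM, and Spry2 rose 2.20-fold (2.05 to 2.37) and 3.10-fold (2.81 to 3.43). A gene that overlaps Dusp10 on the opposite strand, 1700056E22Rik, had an FPKM between 0.850 and 2.52.

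Dusp6 and Spry1 fell in both clones. Dusp6 (ENSMUSG00000019960, chromosome 10 from 99263231 to 99267488) is transcribed in response to ERK, and its product acts on ERK with little activity on the other kinases. Its FPKM was 46.6 with DMSO and 8.52 with DFX in 4T1-HM, and 28.9 and 11.2 in 4T1-LM. The level was 5.47-fold lower with DFX (4.88 to 6.15) in 4T1-HM and 2.59-fold lower (2.36 to 2.85) in 4T1-LM. Only 0.742% of expressed genes in 4T1-HM and 4.602% in 4T1-LM had a lower log2 fold change.

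Spry1 (ENSMUSG00000037211, chromosome 3 from 37639947 to 37644598) encodes a Sprouty protein like Spry2 but moved the other way. Its FPKM was 19.7 with DMSO and 3.11 with DFX in 4T1-HM, and 29.8 and 8.41 in 4T1-LM. The controls exceeded the DFX libraries in both clones. It was 6.34-fold lower (5.27 to 7.67) in HM_DFX, from 961 to 130 fragments, and 3.54-fold lower (3.20 to 3.92) in LM_DFX. The ratio of Spry2 to Spry1 in FPKM was 1.68 with DMSO and 23.5 with DFX in 4T1-HM, and 0.500 and 5.48 in 4T1-LM. Of the 31-mers of Spry1, 23.1% also occur on the opposite strand in Gm42922, whose FPKM was 0.374, 0, 1.009 and 0.308. The use of strand in counting is not given in the sources used here.

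**Figure D2:**
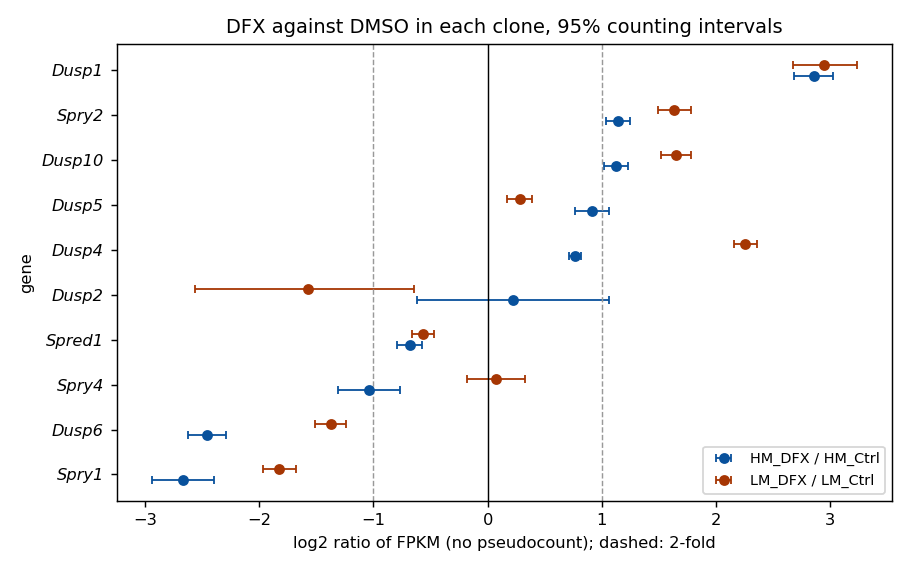
Log2 ratio of FPKM with DFX to FPKM with DMSO, without a pseudocount, for each feedback gene in 4T1-HM (blue) and 4T1-LM (brown). Bars are 95% counting intervals and dashed lines mark 2-fold. Dusp1, Spry2 and Dusp10 lie beyond 2-fold on the right and Dusp6 and Spry1 on the left in both clones, while the clones lie furthest apart among the well-counted genes for Dusp4.

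The other 4 members were not called in either clone. Dusp5 (ENSMUSG00000034765, chromosome 19 from 53529109 to 53542431), which encodes a nuclear phosphatase specific to ERK, had an FPKM of 13.9 with DMSO and 26.2 with DFX in 4T1-HM, and 27.8 and 33.7 in 4T1-LM. HM_Ctrl was the low library here, and the log2 fold change was 0.87 in 4T1-HM and 0.27 in 4T1-LM. On the opposite strand 21.2% of its 31-mers occur in another annotated gene. Spred1 (ENSMUSG00000027351, chromosome 2 from 117121374 to 117182279), whose product brings the Ras inhibitor neurofibromin to the membrane, had an FPKM of 18.4, 11.5, 16.2 and 10.9 in the same order. Its log2 fold changes were −0.64 and −0.53. Spry4 (ENSMUSG00000024427, on chromosome 18) had an FPKM of 5.10 with DMSO and 2.49 with DFX in 4T1-HM, and 2.99 and 3.15 in 4T1-LM. Its log2 fold change was −0.81 in 4T1-HM and 0.05 in 4T1-LM. In 4T1-HM the ratio without a pseudocount was past the threshold, at 2.05-fold lower (1.70 to 2.48). Dusp2 (ENSMUSG00000027368, chromosome 2 from 127336159 to 127338376), best known from activated lymphocytes, rested on 26, 26, 32 and 15 fragments. Its FPKM was 0.775, 0.904, 1.02 and 0.342, and its log2 fold changes were 0.10 and −0.59.

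**Figure D3:**
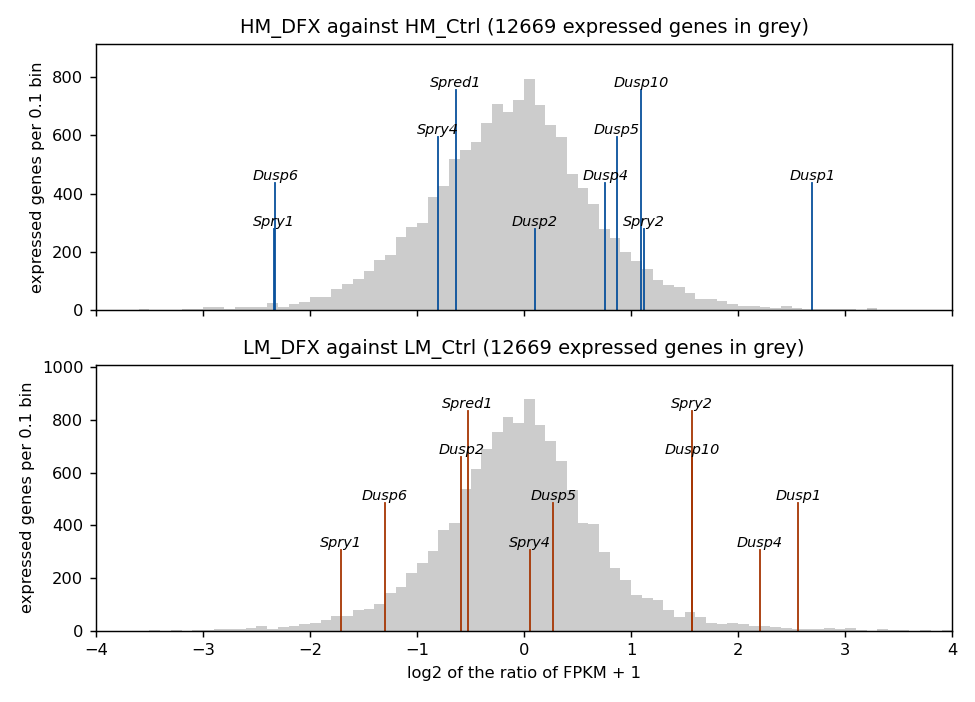
Distribution of the log2 ratio of FPKM + 1 over 12669 expressed genes (grey, genes per bin of 0.1, axis cut at −4 and 4) with the 10 feedback genes marked by lines. Dusp1 lies in the right tail at 2.69 and 2.56, and Spry1 (−2.33 and −1.71) and Dusp6 (−2.32 and −1.30) in the left.

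The amount by which DFX moved a gene was then set side by side for the clones, as the log2 fold change in 4T1-HM minus that in 4T1-LM without a pseudocount. All 4 libraries enter this value, and with 1 library each it has no test beyond counting error. Dusp1 differed by −0.09 (−0.42 to 0.23) and Spred1 by −0.12 (−0.26 to 0.03), and both intervals included 0. With the pseudocount of 1 the value of Dusp1 had the other sign, at 0.13. The values were −1.49 (−1.60 to −1.37) for Dusp4, −0.52 (−0.69 to −0.36) for Dusp10 and −0.49 (−0.67 to −0.32) for Spry2, which had all increased more in 4T1-LM. For Dusp6 the value was −1.08 (−1.29 to −0.87) and for Spry1 −0.84 (−1.14 to −0.54), which had both dropped more in 4T1-HM. Spry4 had −1.11 (−1.47 to −0.75). Dusp5 had 0.63 (0.45 to 0.82) and Dusp2 1.79 (0.61 to 2.97), the last on few fragments.

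Without DFX the clones differed in 3 members. Dusp4, Dusp1 and Spry2 passed the 2-fold threshold with the higher level in HM_Ctrl, as did 3.65% of expressed genes, and no member passed it with the higher level in LM_Ctrl, as did 3.15% (in either direction 6.8%). Dusp4 was 4.52-fold higher (4.21 to 4.86), a difference above that of 99.8% of expressed genes. Dusp1 was 2.65-fold (2.14 to 3.31) and Spry2 2.24-fold (2.01 to 2.49) higher. Dusp10 lay just under the threshold, with a log2 fold change of 0.93. Dusp5 lay near it on the other side, with −0.95 and an FPKM of 13.9 against 27.8. Dusp6 (0.67) and Spry4 (0.61) were further in, and Spry1 had −0.57. The median over the 10 members was 0.64, beside 0.01 over all expressed genes.

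Under DFX 2 members passed the threshold between the clones. Dusp1 was at least 2-fold higher in HM_DFX than in LM_DFX (background 3.31%), at 2.49-fold (2.32 to 2.67), and Spry1 at least 2-fold lower (background 5.05%), at 2.70-fold (2.23 to 3.30), where 8.36% of expressed genes passed in either direction. Without a pseudocount Dusp2 passed as well, at 2.64-fold (1.35 to 5.36). For Dusp4 the ratio between the clones was 1.61 (1.56 to 1.67) and for Spry2 1.59 (log2 0.67, 0.58 to 0.76). Dusp6 had a ratio above 1 without the drug (1.61, log2 0.69, 0.59 to 0.79) and below 1 with it (0.762, 0.667 to 0.869). The median of the 10 members was 0.26, beside −0.05 over all expressed genes. The comparisons between clones and those of DFX share their libraries, so a low value such as that of Dusp4 in LM_Ctrl enters more than 1 of them.

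**Figure D4:**
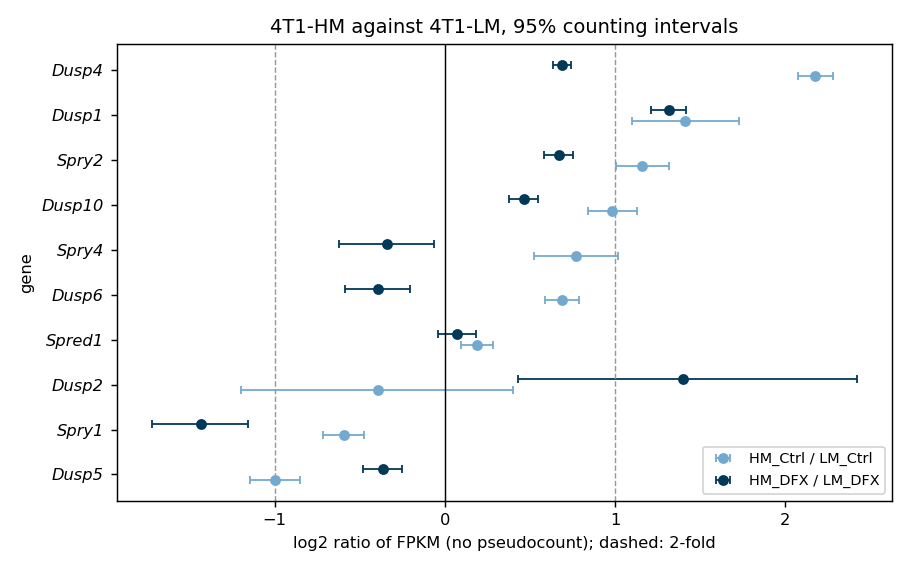
Log2 ratio of FPKM in 4T1-HM to FPKM in 4T1-LM, without a pseudocount, with DMSO (light) and with DFX (dark). Bars are 95% counting intervals and dashed lines mark 2-fold. Dusp4 moves from 4.52-fold to 1.61-fold, Dusp1 stays beyond 2-fold in both, and Spry1 passes 2-fold on the left with DFX.

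The remaining MAP kinase phosphatases were read from a list of 10 genes, of which 7 were expressed. Dusp8 and Dusp16, whose products prefer JNK and p38, rose in both clones, beside 6.93% of all expressed genes in 4T1-HM and 7.09% in 4T1-LM. The FPKM of Dusp8 was 9.06 with DMSO and 62.7 with DFX in 4T1-HM, and 5.26 and 29.3 in 4T1-LM, a rise of 6.92-fold (6.40 to 7.49) in 4T1-HM and 5.56-fold (5.01 to 6.19) in 4T1-LM. Dusp16 had an FPKM of 9.13, 28.8, 5.67 and 17.5, with rises of 3.15-fold (2.95 to 3.37) and 3.10-fold (2.85 to 3.37). None of the 7 was called lower, beside 12.4% of all expressed genes in 4T1-HM and 8.72% in 4T1-LM. At such shares a list this short can hold none. The ERK phosphatases Dusp7 (log2 fold changes of −0.19 and 0.64) and Dusp9 (−0.42 and −0.49) were not called, nor were Dusp3 (0.41 and 0.66), Dusp14 (0.51 and −0.55) and Dusp22 (0.05 and 0.01). Spred2 (−0.29 and 0.27) and Spred3 (−0.84 and −0.33) were not called, and Spry3 was not matched.

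Of 11 expressed genes for other inhibitors of receptor and Ras signaling, 1 was called higher and 3 lower in HM_DFX, beside 6.93% and 12.4% of all expressed genes. In LM_DFX 1 was called higher and 2 lower, beside 7.09% and 8.72%. Errfi1, an inhibitor of the EGF receptor, had an FPKM of 67.5 with DMSO and 23.8 with DFX in 4T1-HM, and 63.0 and 14.0 in 4T1-LM. Rasa1, which encodes a GTPase activator for Ras, also fell in both clones (log2 fold changes of −1.42 and −1.05), and the adaptor gene Dok1 fell in 4T1-HM (−2.18, with −0.76 in 4T1-LM). Cblb, a ubiquitin ligase for receptors, rose in both (1.31 and 1.34). The median of the list was −0.34 in 4T1-HM and −0.27 in 4T1-LM.

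In the kinase cascades the counts are to be read beside the 19.3% of expressed genes called in either direction in 4T1-HM and the 15.8% in 4T1-LM. Of 16 genes of the Ras-ERK cascade, 1 fell in HM_DFX, which was Mapk3 (ERK1, −1.10, with −0.32 in 4T1-LM), and 2 rose in LM_DFX, Map2k1 (MEK1, 1.21, with 0.90 in 4T1-HM) and the scaffold gene Ksr1 (1.11 and 0.62). The list medians were −0.04 and −0.10. Of 14 expressed genes of the p38 and JNK cascades, Mapk13 (−1.35, with −0.40 in 4T1-LM), Map3k5 (−1.33 and −0.53) and Mapk11 (−1.09 and −0.81) fell in HM_DFX. Map3k1 rose in LM_DFX (1.56) and lay at the threshold in HM_DFX, where the ratio without a pseudocount was 2.21 (2.00 to 2.45). The medians here were −0.19 and −0.23.

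Genes that are known to be induced by ERK were compared with those induced by stress kinases, both without the members. Of 12 ERK-induced genes, 1 rose and 3 fell in HM_DFX (background 6.93% and 12.4%), and none rose and 4 fell in LM_DFX (background 7.09% and 8.72%), with medians of −0.29 and −0.50. The ETS factor gene Etv1 (−2.85 and −1.38) and the cyclin gene Ccnd1 (−2.66 and −2.04) fell in both clones. Etv4 fell in 4T1-HM (−1.79, with −0.82 in 4T1-LM). Fos rose in 4T1-HM from an FPKM of 0.939 to 5.59 (1.77, with 0.60 in 4T1-LM). Egr1 (0.23 in 4T1-HM) and Epha4 (−0.86) were called lower in 4T1-LM, with −1.58 and −1.13, and Myc had 0.95 and 0.93. Without a pseudocount Epha4 was lower in both clones, 7.72-fold (4.59 to 13.9) in 4T1-HM and 5.13-fold (3.94 to 6.77) in 4T1-LM. Its FPKM was low, at 1.07, 0.138, 2.07 and 0.403. Egr1, Epha4 and Myc, and Ier2 and Junb below, were named after their values had been seen. Of 9 genes induced by stress kinases, 6 rose and 1 fell in HM_DFX, and 6 rose and 2 fell in LM_DFX, beside the same background shares and with medians of 1.67 and 1.23. Atf3, a stress-induced transcription factor, had an FPKM of 45.0 with DMSO and 385 with DFX in 4T1-HM, and 5.05 and 184 in 4T1-LM. Gadd45a (1.47 and 2.41) and Gadd45g (2.43 and 2.32) rose in both clones, and Ddit3 rose in 4T1-LM (3.99, with 0.88 in 4T1-HM). Ier2, an immediate early gene, fell in both (−1.55 and −2.40), and the AP-1 subunit gene Junb fell in 4T1-LM (−1.57, with 0.59 in 4T1-HM). Many of these genes also respond to other signals, and the lists are not independent of one another.

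**Figure D5:**
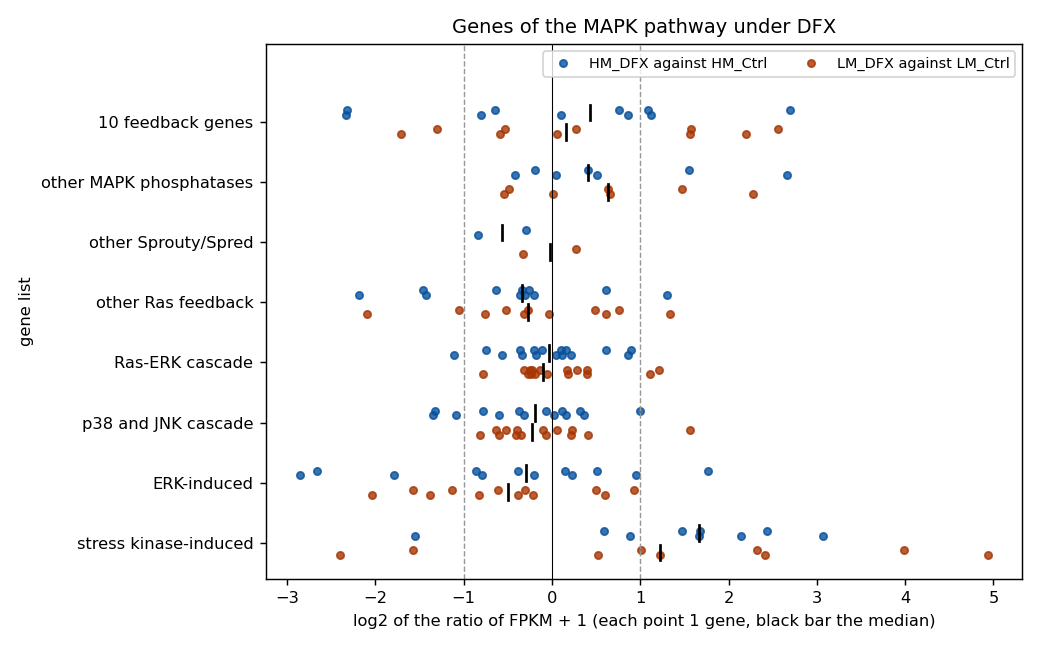
Log2 ratio of FPKM + 1 with DFX against DMSO for the expressed genes of each list, in 4T1-HM (blue) and 4T1-LM (brown). Each point is 1 gene, black bars are list medians and dashed lines mark 2-fold. The stress kinase-induced genes have medians of 1.67 and 1.23, and those of the Ras-ERK cascade lie at −0.04 and −0.10.

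The genes with the most similar profiles were sought for Dusp1 and Dusp6, by the Euclidean distance of log2 values of FPKM + 1 centred over the 4 libraries. With 4 libraries this likeness is only a description. Nearest to Dusp6 was Fmnl1, at a distance of 0.06 and with an FPKM of 63.5 with DMSO and 11.7 with DFX in 4T1-HM, and 37.8 and 14.8 in 4T1-LM. Igfbp4 (0.18) and Megf6 (0.21) followed. Nearest to Dusp1 was Dusp8 (0.39), before Hmox1 (0.44) and Aloxe3 (0.48). Among the members, Dusp10 and Spry2 were closest to each other (0.19), while the nearest member to Dusp6 was Spry1 at 1.08.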

How the data were processed

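RNA was measured in 4 libraries, 1 for each clone and treatment, assigned by their labels. Per the labels and the methods section, the authors selected poly(A) RNA, made directional libraries, sequenced 150-base read pairs, trimmed them with Trimmomatic and aligned them to mm10 with HISAT2. The submitters' processing notes also name FastQC and featureCounts. Versions and the use of strand are not given in the sources used here. The deposited values are FPKM, 1 column for each library.

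Exon lengths of GENCODE release M21 turned FPKM back into fragments. Of 18236 genes above 0 with matching coordinates, 96.6% gave whole fragments in each of the 4 libraries, with a tolerance of 0.02, and for 2698 more a length that did so was solved. The latter included Dusp1, Dusp6, Spry2 and Spry4, each with 1 solution. Fragments served only for depth (14363061 to 21883838) and intervals, which are Poisson for levels, exact conditional binomial for ratios and a normal approximation for differences between ratios. Reads carry no molecular identifiers, so intervals cover counting error only.

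Fold changes are log2 ratios of FPKM + 1. The 12669 genes that reached an FPKM of 1 in any library were used, and 2-fold was called. The study used edgeR, which needs replicates for the spread and was not run here. Calling was tested on simulated data that held counting error but no variation between cultures. The members and lists were chosen with earlier results of these data known. The lists hold textbook genes. The genes named are the 10 members, up to 4 genes of each list past 2-fold under DFX in either clone, all expressed phosphatase and Spred genes, the HIF targets, and the 3 nearest profiles to Dusp1 and Dusp6, beside genes said to be named after their values were seen. Map3k20 was not matched, and Map2k7 had more than 1 entry and was left out. The pseudocount (0.1), the filter (none, or mean FPKM from 1), the scaling (median-ratio or 75th percentile), the gene types (protein-coding) and the threshold (1.5-fold or 4-fold) were varied in turn. A ratio without a pseudocount was added after seeing the data. Python 3.11.15, pandas 2.3.3 and scipy 1.17.1 were used.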

Additional observations from a re-analysis of the deposited data

Results flagged for a closer look

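The effect of DFX had opposite signs in the clones for 2 members, and this difference was not tested. Spry4 had a log2 fold change of −0.81 in 4T1-HM, with a counting interval of the ratio from 0.404 to 0.587. In 4T1-LM it had 0.055, where the counting interval of the ratio (0.882 to 1.26) included no change. Dusp2 had 0.10 in 4T1-HM, with an interval of the ratio from 0.650 to 2.09, and −0.59 in 4T1-LM, with an interval from 0.170 to 0.641. It rested on 26, 26, 32 and 15 fragments in HM_Ctrl, HM_DFX, LM_Ctrl and LM_DFX.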

How the results depend on the processing

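In the 4 comparisons between libraries no member changed direction under the scalings, filters and pseudocounts tried. The DFX effect in 4T1-HM minus that in 4T1-LM changed sign for Dusp1, from 0.13 to −0.065 with a pseudocount of 0.1 and −0.093 without one, and for no other member. Under a pseudocount of 0.1, Spry4 passed 2-fold in 4T1-HM (−1.01), Dusp2 in 4T1-LM (−1.33) and Dusp2 between the clones with DFX (1.18), and the same 3 calls arose without a pseudocount. This gave 2 members higher in HM_DFX than in LM_DFX under either setting, in place of 1, since a pseudocount of 1 shrinks low values. The threshold moved the counts of members most. These counts are to be read beside those over all expressed genes at the same threshold, given in the next paragraph. At 1.5-fold, 5 were higher and 4 lower in HM_DFX against HM_Ctrl, 6 higher and 1 lower in HM_Ctrl against LM_Ctrl, and 3 higher in HM_DFX against LM_DFX. In LM_DFX against LM_Ctrl, Dusp2 (−0.587) was lower at 1.5-fold beside Dusp6 and Spry1, and the same members as at 2-fold were higher. At 4-fold, 1 was higher in HM_DFX against HM_Ctrl, where Dusp6 (−2.32) and Spry1 (−2.33) were still lower. In LM_DFX against LM_Ctrl 2 were higher and 0 lower at 4-fold. In HM_Ctrl against LM_Ctrl 1 was higher, and 0 were higher or lower in HM_DFX against LM_DFX. No paired analysis was possible because each group holds 1 library, and for the same reason no library could be left out.

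Of all 12669 expressed genes, 2031 were higher and 3297 lower at a 1.5-fold threshold in HM_DFX against HM_Ctrl. The counts of higher and lower genes were 2088 and 2528 in LM_DFX against LM_Ctrl, 1329 and 1102 in HM_Ctrl against LM_Ctrl, and 1260 and 1848 in HM_DFX against LM_DFX. At 4-fold they were 111 and 166, 180 and 134, 42 and 55, and 36 and 59. With a pseudocount of 0.1, 2397 were lower in the first comparison, 1349 higher and 1721 lower in the second, 883 and 674 in the third and 810 and 1183 in the last, where protein-coding genes alone gave 268 higher. The reported counts at 2-fold were 878 and 1568, 898 and 1105, 462 and 399, and 419 and 640.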
